A study of Mus musculus with 101 samples.

Results

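The Gpr1-Zdbf2 locus is an imprinted interval on mouse chromosome 1 at which the copies from mother and father are methylated at different places. It was taken as the target regions of the category "imprinting" in a window of 0.3 Mb on chromosome 1 around both genes, which gave 3 of the 868 target regions, with the 37 CpGs that the CpG table lists in that window, of 7917 in all. Methylation was read by enzymatic methyl sequencing, in which enzymes convert unmethylated cytosines, after capture with a targeted panel. The samples were embryonic stem cell lines from Diversity Outbred mice, a stock bred from several inbred strains, and every line was cultured with serum, LIF and the 2i inhibitors, which hold the cells in a naive state. The 85 lines fell into 28 B1, 18 B2, 20 B3A and 19 B3B lines by the prefix of their names, which the sources used here do not explain; all 4 groups shared the same culture, and genotypes of single lines were not analysed here. Each column is called a line, but the B1 columns B1dB37 and B1dB37N have names that differ by a final N, so that n = 85 may hold 1 line a second time. They had 8.65% and 6.83% at Zdbf2, and 28.1% and 24.9% at Gpr1.

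In the mouse, this locus carries a pair of marks on opposite parental copies. The egg methylates the upstream promoter of Zdbf2, which lies within Gpr1, the gene of a chemerin receptor; on the paternal copy that promoter is unmethylated and drives a long transcript across the locus in the early embryo. Methylation is then laid down on the paternal copy in front of the downstream promoter of Zdbf2, a zinc-finger gene linked to growth and feeding of newborn mice. The upstream mark is therefore inherited from a germ cell, and the downstream one is acquired after fertilization. Culture in 2i is known for low methylation across the genome of embryonic stem cells. The fractions here do not separate the parental copies, so a level cannot be given to either copy.

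The Gpr1 mark was read in 1 region of 1098 bp, chr1:63199879-63200976 (mm10), which overlaps both Gpr1 and Zdbf2 and spans the upstream Zdbf2 start at 63200358 (positions -479 to 618 in bp from it). The Zdbf2 mark was read in 2 regions within Zdbf2 and before its downstream start at 63273269. The upstream one, chr1:63260549-63261295, holds 747 bp and ends 11974 bp before that start. The downstream one, chr1:63263781-63263926, holds 146 bp and ends 9343 bp before it. The Zdbf2 mark of a line is the mean of its 2 regions, and in the 4 lines without a value at the downstream region it is the upstream region alone. The RefSeq promoter at the upstream Zdbf2 start is shown because 12 of its 15 CpGs were measured as part of the Gpr1 mark. It is chr1:63200108-63200407 of GRCm38.p6, the assembly whose coordinates mm10 uses, on the + strand; capitals mark the 12 measured CpGs.
Zdbf2 upstream promoter: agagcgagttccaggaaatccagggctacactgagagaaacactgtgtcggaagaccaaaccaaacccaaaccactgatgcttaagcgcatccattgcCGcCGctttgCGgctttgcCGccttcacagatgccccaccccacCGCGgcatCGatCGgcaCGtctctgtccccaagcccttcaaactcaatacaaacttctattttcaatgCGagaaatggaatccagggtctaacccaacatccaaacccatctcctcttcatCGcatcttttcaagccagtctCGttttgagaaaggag
The motif TGCCGC, which the imprint-protecting factor ZFP57 is known to bind when methylated, was searched on both strands. The promoter held it 3 times, forward at positions -155 and -136 in bp from the start and as its reverse complement GCGGCA at -107, with no overlap between matches. Of 32851 promoters of the same length, 3813 (11.6%) held it at least 1 time, and the share with 3 matches was not counted. Mean methylation of the 3 CpGs within the motif lay between 15.6% and 16.5%, and that of the 9 other measured CpGs of the promoter between 12.5% and 17.5%.

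Both marks were low in most lines and ranged widely between them. The Zdbf2 mark averaged 21.9% ± 16.1 (SD, n = 85), with a lowest value of 2.48%, a median of 16.3% and a highest of 66.9%. The Gpr1 mark averaged 17.2% ± 14.7 (SD, n = 85), with a lowest value of 0%, a median of 13.8% and a highest of 52.5%. The ranges of the marks overlapped over most of their width, and no line reached 75% at either. Within the Zdbf2 mark, the upstream region had 22.6% ± 15.5 (SD, n = 85) and the downstream region 20.9% ± 17.7 (SD, n = 81). In the 81 lines with both, the upstream region exceeded the downstream one by 1.57 points ± 7.81 (SD), which did not pass (two-sided sign-flip permutation p = 0.0695, higher in 54 lines), and the regions rose and fell together (r = 0.897, Spearman's rho = 0.873, permutation p = 1e-05, the smallest that 100000 resamples can give; r = 0.877 without the 2 farthest lines). The files give fractions without read counts, so the depth behind a value is unknown and sampling noise adds to every SD.

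The overall level of a line, the mean of its 764 kept target regions outside the imprinting category, was 18.9% ± 10.02 (SD, n = 85) and ranged from 3.01% to 43.7%. Target regions at naive pluripotency genes were nearly unmethylated at Nanog (0.360% ± 0.599, SD, n = 85), Zfp42 (0.792% ± 1.44, SD, n = 80) and Tbx3 (0.191% ± 0.381, SD, n = 83) and higher at Dppa3 (6.27% ± 6.47, SD, n = 64). Only their methylation was read, not their expression.

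Single CpGs showed an even Gpr1 mark and an uneven Zdbf2 mark. The 8 CpGs of the Zdbf2 upstream region had means between 9.38% and 26.7%, and the downstream region has none in the CpG table. The 2 lowest, at 63260866 (9.38%) and 63261178 (10.8%), stood apart from the others, which lay between 18.7% and 26.7%. The 29 CpGs of the Gpr1 region had means between 12.5% and 19.9%. The SD of these means over CpGs was 6.06 points at Zdbf2 and 2.02 points at Gpr1. Within a line, the SD across CpGs had a median of 8.50 points at Zdbf2 (range 2.34 to 21.3) and of 4.17 points at Gpr1 (range 0 to 12.5). Over lines, pairs of CpGs within the Zdbf2 region had r between 0.619 and 0.924 (median 0.773, 28 pairs), and pairs within the Gpr1 region had r between 0.823 and 0.994 (median 0.896, 406 pairs). Across the marks, the 232 pairs of a Zdbf2 and a Gpr1 CpG had a lower median r of 0.468 (0.309 to 0.687). CpGs of a region share reads and library, and these r are a description without a test.

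At Zdbf2, the CpG at 63260782 had the highest mean, 26.7% ± 17.04 (SD, n = 85), and was the only CpG of either region with a mean above 25%. The CpG at 63260739 varied most between lines: its SD was 18.8 around a mean of 24.2% (n = 85), with values up to 78.1%. The CpG at 63260866 had both the lowest mean and the smallest SD, 9.38% ± 8.86 (SD, n = 85), with 17 lines at 0 and none above 37.5%. At Gpr1, the CpG at 63200778, which lies 420 bp after the upstream Zdbf2 start, had the highest mean and SD, 19.9% ± 17.01 (SD, n = 85). The lowest mean and SD were at 63200267, at position -91 from that start, with 12.5% ± 11.96 (SD, n = 85). Between 11 and 19 lines were at 0 at a given Gpr1 CpG, and between 2 and 17 at a given Zdbf2 CpG.

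**Figure D1:**
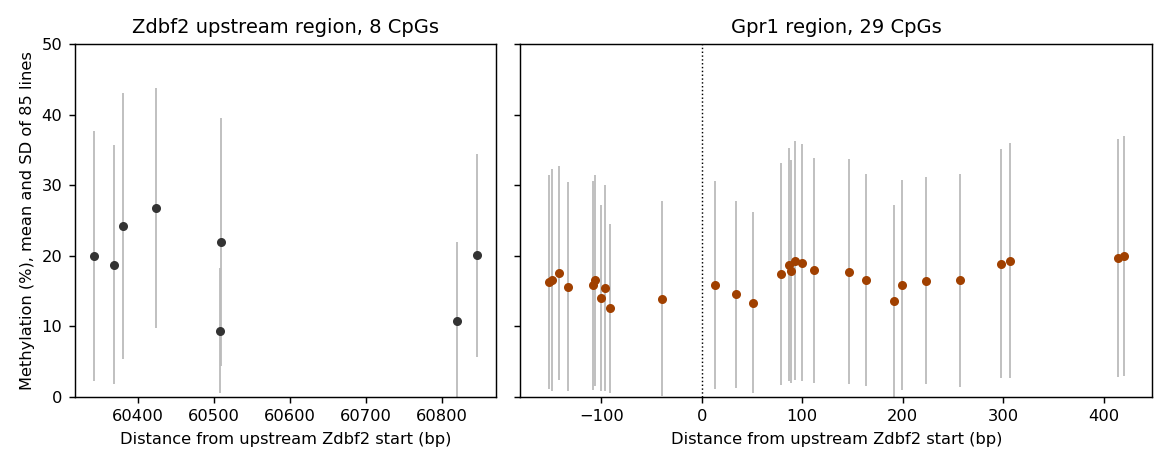
Mean methylation (%, dots) and SD over 85 lines (grey bars, drawn down to 0 at most) of each CpG, by distance in bp from the upstream Zdbf2 start, for the 8 CpGs of the Zdbf2 upstream region (left) and the 29 of the Gpr1 region (right; dotted line, the start itself). The Gpr1 CpGs lie between 12.5% and 19.9%, and the Zdbf2 CpGs between 9.38% and 26.7%.

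Read in the same line, the Zdbf2 mark was on average the higher of the pair. It exceeded the Gpr1 mark by 4.67 points ± 14.04 (SD, n = 85), with 21.9% at Zdbf2 and 17.2% at Gpr1, and was higher in 59 of 85 lines (sign-flip permutation, two-sided p = 0.00273). With both means taken over the CpG table, the difference was 2.34 points (18.97% at Zdbf2, 16.6% at Gpr1) and no longer passed (permutation p = 0.109). That table holds no CpG of the downstream Zdbf2 region, but the deposited average of the upstream region alone gave a difference of 5.42 points (permutation p = 0.00106). Over the 31 lines whose name ends in N, a letter that the sources used here do not explain, it was 0.255 points (p = 0.919). Single lines departed far from the mean in both directions. Line B1dB14 had 45.1% at Zdbf2 and 1.15% at Gpr1, line B2d22 had 39.7% at Zdbf2 and 1.33% at Gpr1, and line B1dB40 had 63.4% at Zdbf2 and 26.3% at Gpr1. At the other end, line B3Ad7N had 23.4% at Zdbf2 and 48.6% at Gpr1, line B1dC13N had 23.6% at Zdbf2 and 48.7% at Gpr1, and line B1dA23 had 24.7% at Zdbf2 and 46.6% at Gpr1.

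Levels under 25%, well under what 1 methylated copy of 2 would give, were about as frequent at both marks, and levels near 0 were found more often at Gpr1. Of the 85 lines, 58 were under 25% at Zdbf2 and 59 at Gpr1. Both marks were under it in 48 lines, Zdbf2 alone in 10, Gpr1 alone in 11 and neither in 16 (exact McNemar p = 1). With a bound of 5%, chosen after the values were seen, 6 lines were under it at Zdbf2 and 26 at Gpr1. All 6 were also under it at Gpr1, and 20 were under it at Gpr1 alone (exact McNemar p = 1.91e-06). The Zdbf2 mark is a mean of 2 regions, whereas Gpr1 is 1 region. Taken alone, the upstream Zdbf2 region was under 5% in 3 of 85 lines and the downstream one in 12 of 81. These single regions were not tested against Gpr1. In the 26 lines with Gpr1 under 5%, Zdbf2 ranged from 2.48% to 45.1% with a median of 7.02%, and 2 of them had 25% or more.

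**Figure D2:**
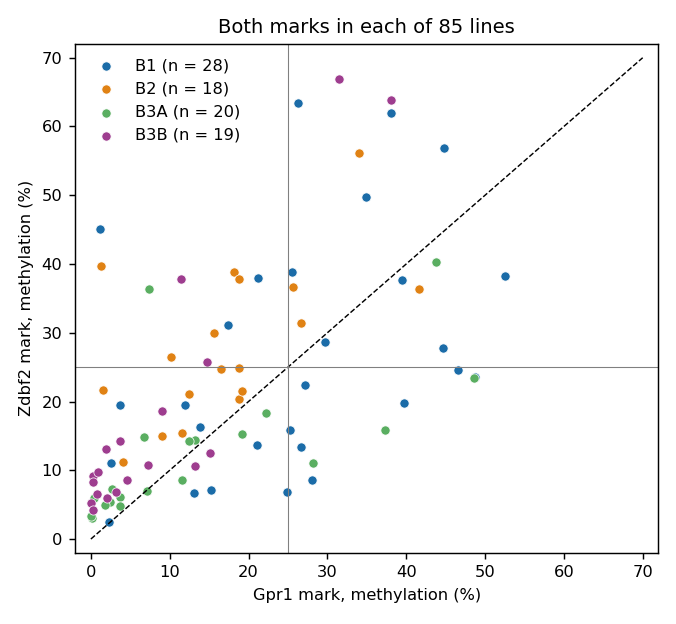
The Zdbf2 mark (vertical axis, %) against the Gpr1 mark (horizontal axis, %) in each of 85 lines, coloured by prefix; the dashed line marks equal values and the grey lines mark 25%. Points lie above the dashed line in 59 lines, and 2 points at the left have Gpr1 under 5% with Zdbf2 above 25%.

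The marks rose and fell together over lines, and each followed the overall level of the line, Zdbf2 more closely than Gpr1. Zdbf2 and Gpr1 correlated at r = 0.585 (rho = 0.649, n = 85, permutation p = 1e-05, adjusted p = 3.15e-05 over the 104 correlation p-values computed; r = 0.595 without the 2 farthest lines). Within prefixes, r was 0.401 for B1 (adjusted p = 0.0526, permutation), 0.567 for B2 (adjusted p = 0.0238), 0.656 for B3A (adjusted p = 0.00809) and 0.915 for B3B (adjusted p = 0.00013). Without the 2 lines of each prefix farthest from its median of Gpr1, these values were 0.495, 0.357, 0.421 and 0.638. Those of B2 (permutation p = 0.172) and B3A (permutation p = 0.0819) no longer passed. Spearman's rho was 0.456 for B1 (adjusted permutation p = 0.0263), 0.430 for B2 (adjusted p = 0.103), 0.863 for B3A (adjusted p = 3.15e-05) and 0.789 for B3B (adjusted p = 0.000173), so the relation by rank passed in 3 prefixes and that of B2 rested on 2 lines. A test that this r differs between prefixes, added after the values were seen, gave a permutation p of 0.0377, and of 0.839 once the 2 farthest lines of every prefix were set aside. Over the lines without a final N, the permutation p was 0.00644, but the r of B3A rested there on 4 lines. In lines with a final N, r was 0.657 (n = 31), and in the others 0.585 (n = 54).

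The overall level correlated with Zdbf2 at r = 0.906 (rho = 0.886, n = 85, adjusted permutation p = 3.15e-05) and with Gpr1 at r = 0.723 (rho = 0.746, n = 85, adjusted permutation p = 3.15e-05). Without the 2 farthest lines, r was 0.896 at Zdbf2 and 0.713 at Gpr1. Within B1, B2, B3A and B3B, r was 0.884, 0.933, 0.908 and 0.943 at Zdbf2, against 0.575, 0.712, 0.755 and 0.886 at Gpr1. Without the 2 lines of each prefix farthest from its median of the overall level, these values were 0.874, 0.887, 0.873 and 0.767 at Zdbf2. At Gpr1 they were 0.530, 0.592, 0.917 and 0.583. The order of the marks thus turned in B3A without 2 lines, and the difference between the marks was not tested within prefixes. The difference between the 2 correlations, 0.182, was tested after the values were seen by swapping the marks within lines (permutation p = 0.00013, adjusted p = 0.000195 over 3 such tests). It kept its direction and passed under each of the 8 alternatives tried, with values between 0.132 and 0.207. Single Zdbf2 CpGs had r with the overall level between 0.669 and 0.905, and single Gpr1 CpGs between 0.621 and 0.791. The gap between the marks widened with the overall level at r = 0.280 (adjusted permutation p = 0.0164, and rho = 0.201 with p = 0.0652). On log2 odds r was -0.0645 (p = 0.558), so its direction depended on the scale. The sign of r also varied by prefix, with 0.380 for B1, 0.288 for B2, -0.173 for B3A and 0.820 for B3B. Only the r of B3B passed (adjusted permutation p = 0.000677). By rank, rho was -0.490 in B3A (adjusted permutation p = 0.047) and 0.572 in B3B (adjusted permutation p = 0.0214). In lines with a final N, this r was 0.0200 (n = 31), and in the others 0.382 (n = 54).

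**Figure D3:**
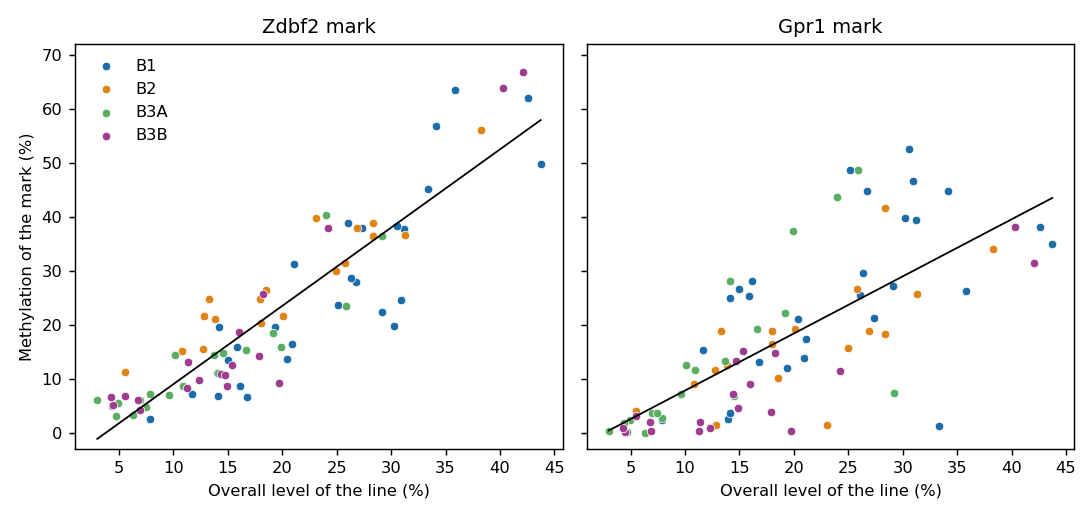
Methylation (%) of the Zdbf2 mark (left) and the Gpr1 mark (right) in each of 85 lines, against the overall level of the line (%), coloured by prefix, with least-squares lines. The points lie closer to the line at Zdbf2 (r = 0.906) than at Gpr1 (r = 0.723), where lines with an overall level of 23.1% and 33.4% have 1.33% and 1.15%.

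At equal overall level, taken as the residuals of each mark from a straight line on that level, the marks no longer rose together. Their r was -0.237 (rho = -0.222, n = 85, permutation p = 0.0283, adjusted p = 0.0461) and did not pass without the 2 farthest lines (r = -0.215, p = 0.0509), with a term for prefix (r = -0.184, p = 0.0902) or on log2 odds (r = -0.0128, p = 0.908). No prefix passed alone, with r of -0.297 for B1, -0.274 for B2, -0.213 for B3A and 0.351 for B3B. These values by prefix used residuals from the straight line fitted over all 85 lines. The level was thus not taken out within each prefix, and a fit per prefix was not run. Over the lines of all prefixes, r was larger in size with the upstream Zdbf2 region alone (r = -0.401, permutation p = 0.00015). It was also larger with means over the CpG table (r = -0.341, permutation p = 0.00149), and near 0 with the downstream region alone (r = -0.0498, permutation p = 0.658). The call thus depended on the Zdbf2 region read, on 2 lines, on the prefix term and on the scale.

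The marks also differed in their relation to the 20 other imprinted regions of the panel once the overall level was taken out. With the mean of these 20 regions, r was 0.756 at Zdbf2 and 0.836 at Gpr1 (n = 85, adjusted permutation p = 3.15e-05 each), and the difference of -0.0806 did not pass (permutation p = 0.173). At equal overall level, r was -0.236 at Zdbf2 (rho = -0.282, adjusted permutation p = 0.0471) and 0.611 at Gpr1 (rho = 0.651, adjusted permutation p = 3.15e-05). This difference in r, -0.847, passed (permutation p = 1e-05, adjusted p = 3e-05) and lay between -0.653 and -0.956 under the 8 alternatives tried, all of which passed. These relations were added after the values were seen. The negative value at Zdbf2 did not pass on log2 odds (r = -0.0639, p = 0.562), in lines with a final N (r = -0.133, p = 0.477) or with the downstream region alone (r = -0.0918, p = 0.412); with the upstream region alone it was -0.344 (p = 0.00129) and from the CpG table -0.333 (p = 0.00185, all by permutation). The positive value at Gpr1 was 0.546 for B1 (adjusted permutation p = 0.00591), 0.509 for B2 (adjusted p = 0.053), 0.690 for B3A (adjusted p = 0.00164) and 0.458 for B3B (adjusted p = 0.0689), where it was -0.107 without the 2 farthest lines and rested on them. At Zdbf2, the values were -0.359, -0.157, -0.364 and 0.0987 over the lines of B1, B2, B3A and B3B, and none passed after adjustment. In lines with a final N, r was -0.133 at Zdbf2 and 0.733 at Gpr1 (n = 31), and in the others -0.294 at Zdbf2 and 0.463 at Gpr1 (n = 54). The values by prefix and these last values by final N used residuals from the fit over all lines (n = 85), so the level was not taken out within each group.

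Region by region, the r at equal level was negative with Zdbf2 at 18 of 20 other imprinted regions (median -0.173) and positive with Gpr1 at 19 of 20 (median 0.478). Among the 15 maternally methylated regions, the class to which Gpr1 itself belongs, 14 were negative with Zdbf2 (median -0.213) and 15 positive with Gpr1 (median 0.538). The highest values with Gpr1 were 0.635 at Plagl1, a zinc-finger growth regulator, 0.633 at Nnat, a neuronal membrane protein gene, 0.615 at Zrsr1, a splicing factor gene within Commd1, and 0.607 at Impact, a translation regulator gene. The exception at both marks was 1 of the 2 regions at Rasgrf1, a paternally methylated locus, with 0.136 at Zdbf2 and -0.261 at Gpr1 (n = 72). At Zdbf2, Nnat was also not negative, with 0.00258. Over all 784 kept regions outside the locus, the median r at equal level was 0.0438 with Zdbf2 (446 positive) and -0.0766 with Gpr1 (291 positive). Before the overall level was taken out, r was higher with Zdbf2 than with Gpr1 at 743 of these 784 regions, but at 2 of the 20 imprinted ones. Regions share lines and overall level, so these counts are descriptions.

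**Figure D4:**
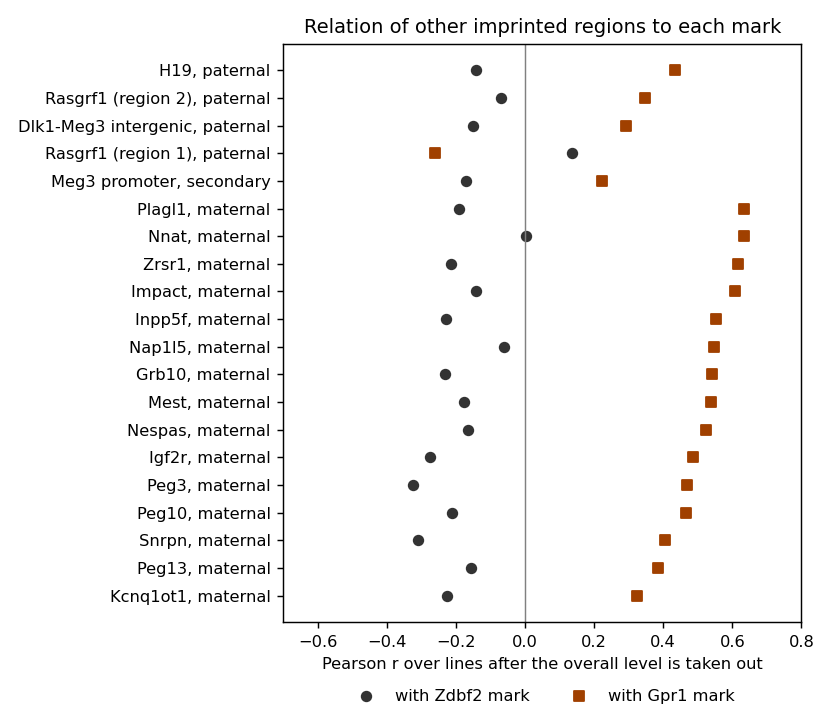
Pearson r over lines, after the overall level was taken out, of each of 20 other imprinted regions (vertical axis, with the parental copy known to be methylated) with the Zdbf2 mark (dark circles) and the Gpr1 mark (brown squares). Squares lie right of 0 at 19 regions and circles left of 0 at 18.

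The regions whose levels over the 85 lines were most like each mark were of different categories. For Zdbf2 they were regions overlapping Znrf4 (r = 0.937), Il12rb1 (0.928), Ly6g6c (0.925), Proser1 (0.924) and Npr2 (0.920), of the cancer and aging categories. For Gpr1 they were Plagl1 (r = 0.846), Nnat (0.842), Zrsr1 (0.838) and Impact (0.828) of the imprinting category, and a region of an aging category at Nap1l5 (0.826), another imprinted gene. At equal overall level, the closest to Zdbf2 were Wdr20rt (0.642), Eef1akmt2 (0.603), Znrf4 (0.568), Trim52 (0.564, n = 84) and Sez6l2 (0.536), and the closest to Gpr1 were the same 5 loci, from 0.635 at Plagl1 to 0.583 at Nap1l5.

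Set against the means of lists of other imprinted loci, Gpr1 was lower than both the maternally and the paternally methylated list, and Zdbf2 lower than the paternally methylated list. A single paternal region went the other way: 1 of the 2 Rasgrf1 regions averaged 15.2% (n = 72), below both marks. Zdbf2 was below the mean of the 3 paternally methylated germline loci H19, Dlk1-Meg3 and Rasgrf1 by -4.71 points ± 10.01 (SD, n = 85; 21.9% at Zdbf2, 26.6% at those loci), higher in 26 lines, with an adjusted sign-flip permutation p of 0.0001. Its differences from the Meg3 promoter, also methylated after fertilization, and from the 15 maternally methylated loci did not pass. They were 1.20 points ± 9.98 from Meg3 and -1.50 points ± 11.1 from the maternal loci (SD, n = 85, adjusted permutation p = 0.27 each). Gpr1 was lower than those maternal loci by -6.17 points ± 8.01 (SD, n = 85; 17.2% at Gpr1, 23.4% at those loci), higher in 13 lines, with an adjusted sign-flip permutation p of 2.5e-05. It was also lower than the paternal loci, by -9.38 points ± 9.46 (SD, n = 85, adjusted permutation p = 2.5e-05).

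Both marks differed between prefixes, as did most target regions. In the limma F test over 787 regions, 642 were called (81.6%), and all 3 regions of the locus were among them (adjusted p = 0.00314 at the upstream and 0.000508 at the downstream Zdbf2 region, 0.000265 at Gpr1). With a share this high over all regions, 3 of 3 is not a result about the locus. With the overall level as a covariate, 22 regions (2.8%) were called, and none of the 3 (adjusted p = 0.087 and 0.0772 at Zdbf2, 0.0772 at Gpr1; unadjusted p = 0.00752, 0.0053 and 0.00528). The covariate, here and for single CpGs, was the mean of the log2 odds of the same 764 regions, not their mean percent. In that fit, 180 of the 787 regions had an unadjusted p under 0.05. Of single CpGs, 45.2% were called over the table, against 4 of 8 at Zdbf2 and 29 of 29 at Gpr1. With the covariate, 0.164% were called, and 0 of 8 at Zdbf2 and 0 of 29 at Gpr1, where 3 and 24 had an unadjusted p under 0.05, as did 1232 of the 7917. The CpGs of a region share reads and moved together over lines (median r = 0.896 at Gpr1 and 0.773 at Zdbf2). Counts of CpGs within a mark are therefore not separate observations.

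Zdbf2 averaged 26.8% ± 17.2 over B1, 28.3% ± 11.2 over B2, 13.04% ± 10.3 over B3A and 17.8% ± 18.6 over B3B (SD, n = 28, 18, 20 and 19; permutation of the F statistic, p = 0.00409, adjusted p = 0.00613). Gpr1 averaged 25.9% ± 14.8 over B1, 16.9% ± 10.6 over B2, 13.6% ± 14.99 over B3A and 8.33% ± 10.7 over B3B (same n; permutation p = 0.00025, adjusted p = 0.00075). The ranges of the prefixes overlapped at both marks. Of 18 pairs of prefixes compared over both marks and their difference, 7 passed. Zdbf2 was higher in B1 than in B3A by 13.7 points (adjusted permutation p = 0.00999) and higher in B2 than in B3A by 15.3 points (adjusted permutation p = 0.00135). Gpr1 was higher in B1 than in B3A by 12.3 points (adjusted permutation p = 0.0225), higher in B1 than in B3B by 17.6 points (adjusted permutation p = 0.00135) and higher in B2 than in B3B by 8.55 points (adjusted permutation p = 0.0493).

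The gap between the marks also differed between prefixes (permutation of F, p = 0.0075). Zdbf2 exceeded Gpr1 by 11.4 points ± 10.1 in B2 (higher in 17 of 18 lines, adjusted sign-flip permutation p = 0.00018) and by 9.50 points ± 9.78 in B3B (17 of 19 lines, adjusted sign-flip permutation p = 0.00018). It did not pass in B1, with 0.812 points ± 17.7 (13 of 28 lines, adjusted permutation p = 0.813), or in B3A, with -0.582 points ± 11.3 (12 of 20 lines, adjusted permutation p = 0.813). The gap in B2 exceeded that in B3A (adjusted permutation p = 0.00558), and the gap in B3A lay below that in B3B by -10.1 points (adjusted permutation p = 0.0135). The final N was unevenly spread, and its part in these differences was not tested: it stood in the names of 6 B1, 16 B3A and 9 B3B lines and of no B2 line. The gap averaged -10.5 points in B1 lines with it and 3.89 points in B1 lines without it, -1.31 and 2.32 points in such lines of B3A, and 10.2 and 8.88 points in those of B3B. In the lines without it, the gap did not differ between prefixes past the threshold (F = 1.24, permutation p = 0.302), nor did Zdbf2 (F = 2.27, permutation p = 0.0873), whereas Gpr1 did (F = 4.27, permutation p = 0.00945).

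**Figure D5:**
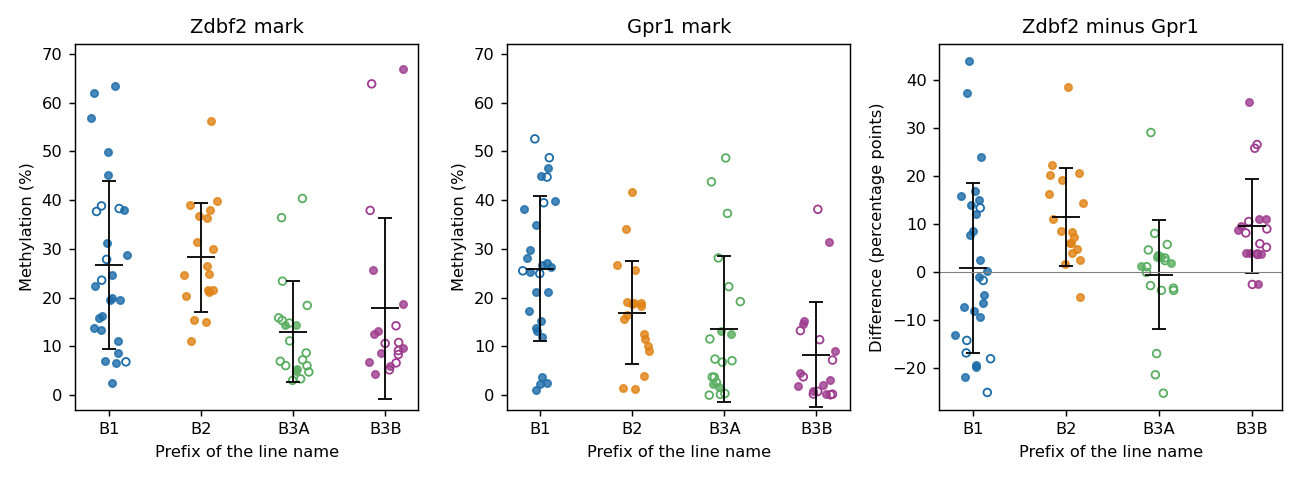
Methylation (%) of the Zdbf2 mark (left) and the Gpr1 mark (middle), and the Zdbf2 minus Gpr1 difference (right, percentage points), by prefix of the line name; each point is a line, open circles have a final N in their name, and bars give mean and SD. The difference averages 11.4 points for B2 and 9.50 for B3B, and 0.812 for B1 and -0.582 for B3A.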

How the data were processed

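The authors deposited average methylation fractions (beta values, 0 to 1) for target regions and fractions for single CpGs, whose names state a coverage filter of 10; the fractions are printed here as percent. The submitters' processing notes list Bismark, Bowtie2, Trim Galore 0.6.4 and the build mm10; the sources used here do not give their roles or settings. The labels list 101 libraries, and each table has 85 columns. By name, 44 columns match 1 title; the other 41 (16 lines with 2 titles, 24 with a final N that the title lacks, 1 with no title) entered only through their prefix. No columns were identical. Nothing says that columns are separate cultures, so p-values rest on the spread from column to column, which may be technical. No read counts are given, so no counting interval was computed.

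The 787 of 868 regions measured in 68 or more lines (80%) were kept; lines lacked 25 to 173 regions, and the CpG table has no missing value. Its positions read CG at 1554 of 1554 places in RefSeq promoters of GRCm38.p6, the source of gene names and sequence (250 bases before to 50 after a start). Prefixes were compared by limma's moderated F test (limma 3.58.1, R 4.3.3) on log2 odds, with an offset of 0.01 added to the fraction and to its complement, Benjamini-Hochberg adjusted over all regions or CpGs with a threshold of 0.05. Values per line were tested in Python 3.11.15 (NumPy 2.4.6, pandas 2.3.3, SciPy 1.17.1; plots by matplotlib 3.10.9) by two-sided permutation with 100000 resamples. The 2 farthest lines of a correlation are those farthest from the median of 1 of its 2 values, within the group of lines used. That value was Gpr1 for the relation of the marks and the overall level for relations with it. At equal overall level it was the residual of Gpr1 or of the other imprinted mean. Between the 2 Zdbf2 regions it was the upstream region. Scripts were tested on simulated data. The named items were both marks and their regions, the CpGs extreme in mean or SD or across 25%, the 5 regions most like each mark, the listed imprinted loci, and the 3 lines at each end of the difference. The members, lists and tests were chosen with earlier results of these data known. Alternatives used other scales, filters, region values and subsets of lines.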

Additional observations from a re-analysis of the deposited data

Results flagged for a closer look

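The Zdbf2 minus Gpr1 difference was singled out because it differed between the 4 prefixes (permutation of the F statistic over 85 lines, p = 0.0075). It averaged 0.812 points over B1, 11.4 over B2, -0.582 over B3A and 9.50 over B3B, and the test did not pass in the lines without a final N (p = 0.302) or in the columns that match 1 title (p = 0.432).

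The correlation of Zdbf2 with Gpr1 was singled out because it differed between prefixes (permutation p = 0.0377), with r of 0.401 for B1, 0.567 for B2, 0.656 for B3A and 0.915 for B3B. Without the 2 lines of each prefix farthest from its median of Gpr1, the permutation p was 0.839. Over the lines without a final N it was 0.00644, with only 4 such lines in B3A.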

How the results depend on the processing

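Over 27 results and 164 alternatives, 129 kept their direction and side of the threshold (or a count within 1.5 times). The remainder are as follows. Causes were not tested, and a subset holds a smaller number of lines. The mean Zdbf2 minus Gpr1 difference was 2.34 points with means from the CpG table (p = 0.109), 2.93 with medians over CpGs (p = 0.0649) and 0.255 in lines with a final N (p = 0.919, all by permutation). The relation of the marks at equal overall level was -0.0128 on log2 odds, -0.294 in columns that match 1 title, -0.184 with a prefix term and -0.0498 with the downstream region alone. The relation of the difference to the overall level reversed to -0.0645 on log2 odds and was 0.145 from the CpG table. Between prefixes, F for Zdbf2 was 2.71 in columns that match 1 title and 2.27 without a final N, and F for the difference 0.930 and 1.24. At a bound of 5%, 20 lines were under it at 1 mark only. Zdbf2 with the other imprinted regions at equal level gave -0.0639 on log2 odds, -0.133 with a final N and -0.0918 with the downstream region alone. The statistic for r between prefixes was 1.13 without the farthest lines and 9.01 on log2 odds (13.05 as reported). Regions called were 22 with the overall level as covariate and 403 in columns that match 1 title. CpGs called were 13 (0.164% of 7917) and 547 (6.91%) in the same settings, and 1801 (22.7%) without a final N. Against these shares, Zdbf2 held 0, 0 and 1 of its 8 CpGs, and Gpr1 0, 4 and 7 of its 29. With the covariate all 3 regions of the locus lost their call (adjusted p = 0.0772 to 0.087, limma). The Zdbf2 upstream region also lost its call in columns that match 1 title (adjusted p = 0.11) and without a final N (adjusted p = 0.0576, limma). Without column B1dB37N (84 columns, chosen after the values were seen), each result recomputed kept its direction and side of the threshold, or its count within 1.5 times. Single calls did change: 652 regions (82.8%) and 3720 CpGs (47%) were called. The CpG at 63260727 of Zdbf2 passed there (adjusted p = 0.0445, limma) but not over all columns (adjusted p = 0.0623, limma). The difference was 4.94 points and the relation of the marks at equal level -0.222 (unadjusted permutation p = 0.0418). The mean over CpGs with a value in every line is that of the CpG table, which has none missing. The marks were compared within lines, but no analysis paired across prefixes was possible, because replicate numbers were given in accession order and pair no samples across prefixes.

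Depth is unknown, so a value from few reads cannot be told from one from many, and the Zdbf2 downstream region rests on no CpG of the CpG table. The tables do not say from which parental copy a read came, nor whether copies or cells differ. Groups of lines are prefixes without a stated meaning, and genotype, batch and prefix cannot be told apart. The sources used here do not say which library a column with 2 titles holds.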

Other observations

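A pair of neighbouring CpGs of the Zdbf2 mark differed strongly. The CpG at 63260866 averaged 9.38% and the CpG at 63260868, 2 bp further on, 21.9%, a difference of -12.5 points ± 11.4 (SD, n = 85 lines). It was lower in 72 lines and higher in 5 (two-sided sign-flip permutation p = 1e-05, adjusted p = 3e-05 over 3 such pairs). The pairs 2 bp apart in the Gpr1 region differed by under 1 point. The CpGs at 63200250 and 63200252 had 15.8% and 16.5%, a difference of -0.709 points (adjusted permutation p = 0.00749), and those at 63200445 and 63200447 had 18.7% and 17.8%, a difference of 0.968 points (adjusted permutation p = 0.000195). The comparison was chosen after the values were seen. 

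By prefix, lines with only Gpr1 under 25% numbered 3 for B1, 5 for B2, 1 for B3A and 2 for B3B. Those with only Zdbf2 under it numbered 7 for B1 and 3 for B3A, with none in B2 or B3B.

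Of the 20 other imprinted regions, those whose r with the overall level was closest to that of Zdbf2 (0.906) were the Meg3 promoter (0.908) and Nnat (0.895), and the r of Gpr1 (0.723) lay between those of Snrpn (0.711) and 1 of the Rasgrf1 regions (0.731).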
